A study of Mus musculus with 16 samples.

Results

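The genes that encode the constitutive proteasome, with its activators, its inhibitor and its assembly factors, were followed in a mouse hepatoma model. Members were taken by symbol: every gene whose current symbol, found through the RefSeq transcript that the array design gives for a probe, begins with Psma, Psmb, Psmc, Psmd, Psme, Psmf or Psmg, without the immunoproteasome subunits Psmb8, Psmb9 and Psmb10. Of 16535 genes with a named probe, 45 fitted this rule, and 44 of them were among the 12311 genes bright enough to be tested. Psmb11, the beta subunit of the thymic proteasome, was not well above background on enough arrays to be tested and was left out. For Psma8, Psmg4 and Psme2b no probe carried the symbol. Psmc3ip and Psme3ip1 share the prefix but encode partners of other proteins, not proteasome subunits, and were kept only because the rule takes them in. Each gene was represented by its brightest tested probe.

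Female C57Bl/6 mice, called athymic in the description of the treatment, received Hepa1-6 cells, a mouse hepatoma line, under the skin. After 10 days the tumours were mashed and passed over a density gradient, which gave the fraction enriched for tumour-infiltrating inflammatory cells (TIC, 8 arrays), and blood of tumour-bearing mice was taken (8 arrays). Each of these RNAs was labelled with Cy5 and hybridised against Cy3-labelled RNA from the blood of untreated female C57Bl/6 mice, which served as the common reference and entered the fits as 1 control sample with no spread of its own. The labels do not say whether 1 pool of this RNA was used on every slide. TIC RNA and blood RNA were extracted with different kits, and the slides were also separate (2 slides for each group), so extraction, slide and group cannot be told apart. The labels do not say whether an array stands for 1 mouse or a pool, so the p-values measure the spread between these arrays.

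The 26S proteasome degrades proteins tagged with ubiquitin. Its 20S core is a barrel of alpha rings, which gate entry, and beta rings, which hold the proteolytic sites. The 19S regulatory particle caps the barrel: a base of ATPases unfolds the substrate, base subunits without ATPase activity bind ubiquitin and its carriers, and a lid that includes a deubiquitinase removes the tag. The alternative caps PA28 and PA200 open the core without ubiquitin, and dedicated chaperones build core and base. In blood, maturing red cells use this system to clear much of their protein, and in inflammatory tissue the beta subunits are partly replaced by the inducible ones.

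Between 51.1 and 65.8% of spots were well above background in Cy5 on TIC arrays, against 24.8 to 36.3% on blood arrays, while the reference in Cy3 gave 41.0 to 51.1%. The number of arrays limits the precision of every value. Log2 ratios over the tested probes correlated with r of 0.80 to 0.98 among TIC arrays and 0.56 to 0.83 among blood arrays, and TIC and blood arrays correlated with r of -0.31 to -0.08. The labels state the dyes, and the direction was kept. Among markers of other cell types, 7 of 9 erythroid markers were lower in TIC than in untreated blood, with a median log2 ratio of -4.57 in TIC and 0.31 in blood. Their summed Cy5 signal was 92397 to 283590 on TIC arrays and 436836 to 893796 on blood arrays. All 4 platelet and all 4 B cell markers were lower in TIC (medians -5.86 and -4.32), and 3 of 4 neutrophil markers were lower (median -1.96). Of 6 monocyte and macrophage markers, 5 were higher in TIC (median 1.12), as were 3 of 4 hepatoma markers (median 2.03), whose summed Cy5 signal was 113209 to 636030 on TIC arrays and 55.9 to 114 on blood arrays. Of the T cell and endothelial markers none of 4 and none of 3 were called in TIC, and 1 of 4 fibroblast and 1 of 3 proliferation markers were higher. In blood of tumour-bearing mice 3 of 4 neutrophil markers were higher, 2 of 4 B cell markers lower and 1 of 4 platelet markers higher. The TIC fraction therefore carried hepatoma transcripts, and the part of each cell type in the values given here was not tested. In such mixed samples fewer cells of a type and less RNA per cell cannot be told apart.

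The upstream sequences of 6 genes at the ends of the range in TIC are shown because the members did not move as one set. Each is the 250 bases before the RefSeq start of the gene on its own strand, 5′ to 3′, build GRCm38.p6, with CCAAT and TGACNNNGC, the core of the antioxidant response element, in capitals where either strand holds them (CCAAT reads ATTGG on the other strand). Psme3 is at chr11:101315963-101316212 (plus strand), Psmd4 at chr3:95042615-95042864 (minus), Psmf1 at chr2:151741311-151741560 (minus), Psma1 at chr7:114276117-114276366 (minus), Psmd12 at chr11:107479278-107479527 (plus) and Psmc6 at chr14:45329574-45329823 (plus).
Psme3: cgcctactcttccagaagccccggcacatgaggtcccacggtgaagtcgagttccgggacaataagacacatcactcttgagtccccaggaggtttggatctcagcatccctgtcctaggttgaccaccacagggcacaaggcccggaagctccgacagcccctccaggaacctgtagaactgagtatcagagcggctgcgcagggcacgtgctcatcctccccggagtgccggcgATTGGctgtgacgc
Psmd4: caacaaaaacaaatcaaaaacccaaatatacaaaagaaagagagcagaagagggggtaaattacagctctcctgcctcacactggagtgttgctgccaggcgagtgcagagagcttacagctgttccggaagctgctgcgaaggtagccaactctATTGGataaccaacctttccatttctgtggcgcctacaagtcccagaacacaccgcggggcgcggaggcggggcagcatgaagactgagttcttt
Psmf1: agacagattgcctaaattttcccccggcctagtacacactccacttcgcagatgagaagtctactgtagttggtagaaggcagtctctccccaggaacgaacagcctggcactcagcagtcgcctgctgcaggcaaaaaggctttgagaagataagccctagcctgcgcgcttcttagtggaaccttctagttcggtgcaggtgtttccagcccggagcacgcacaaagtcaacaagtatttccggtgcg
Psma1: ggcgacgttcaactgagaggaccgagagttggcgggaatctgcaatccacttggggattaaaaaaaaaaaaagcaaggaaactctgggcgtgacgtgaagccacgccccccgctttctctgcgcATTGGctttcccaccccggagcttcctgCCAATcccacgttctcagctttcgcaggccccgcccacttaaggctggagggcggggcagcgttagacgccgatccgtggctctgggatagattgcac
Psmd12: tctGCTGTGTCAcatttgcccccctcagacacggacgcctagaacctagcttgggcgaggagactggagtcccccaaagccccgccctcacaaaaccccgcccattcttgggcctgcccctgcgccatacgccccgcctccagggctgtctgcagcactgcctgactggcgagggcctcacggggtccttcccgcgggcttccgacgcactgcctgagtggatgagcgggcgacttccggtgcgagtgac
Psmc6: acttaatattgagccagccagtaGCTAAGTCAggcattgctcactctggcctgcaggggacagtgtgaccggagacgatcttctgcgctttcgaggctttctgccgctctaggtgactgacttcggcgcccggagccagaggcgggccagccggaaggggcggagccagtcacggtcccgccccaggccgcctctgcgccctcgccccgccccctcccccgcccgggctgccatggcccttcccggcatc
Psme3 and Psmd4, which were low in TIC, each held 1 CCAAT, Psmf1, low as well, held neither motif, Psma1 held 2 CCAAT, and Psmd12 and Psmc6 each held 1 TGACNNNGC. Across RefSeq windows of 250 bases before to 50 after the start, TGACNNNGC was in 12.4% and CCAAT in 37.4% of 32851 windows. By gene, TGACNNNGC was found in 6 of 37 tested members with a window (16.2%, where 3781 of all 27025 genes held it) and CCAAT in 14 of 37 (37.8%, against 41.1% of all genes). Of the members higher in TIC than in blood, 3 of 10 with a window held TGACNNNGC, against 0 of 4 of the lower ones, and CCAAT was in 3 of 10 and 2 of 4. A match is a stretch of letters and no evidence of a bound factor.

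The first question was how proteasome genes stood in TIC against untreated blood. Most of the 44 members lay slightly above the reference (31 above 0, 13 below), with a median log2 ratio of 0.25 in TIC against 0.04 for all tested genes. A gene was called changed at an adjusted p below 0.05 in limma together with at least a 2-fold change. By this rule 8 members were higher and 4 lower in TIC, and 32 were not called. Over all tested genes 19.4% were called, 9.30% higher and 10.1% lower. At the adjusted p alone 24 members were higher and 11 lower, against a background of 41.3% higher and 35.1% lower (76.4% in all). The share of members called higher was above the background and that of members called lower near it, which is a description and was not tested. The higher members were 3 alpha subunits, 1 beta subunit, 1 ATPase and 3 lid subunits, while the lower ones were 2 base subunits, the PA28 gamma activator and the inhibitor PI31.
These signs are set by loess, which brings the trend of the log2 ratios to 0 at each brightness. Of the 13 members below 0 in TIC after loess, only Psme3 and Psmf1 remained below 0 with each array centred on its median log2 ratio, and only these and Psmd4 with arrays centred on their spike-in spots; all 13 were below 0 in the deposited ratios and without background correction. The values of single genes that follow are log2 ratios after loess.

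**Figure D1:**
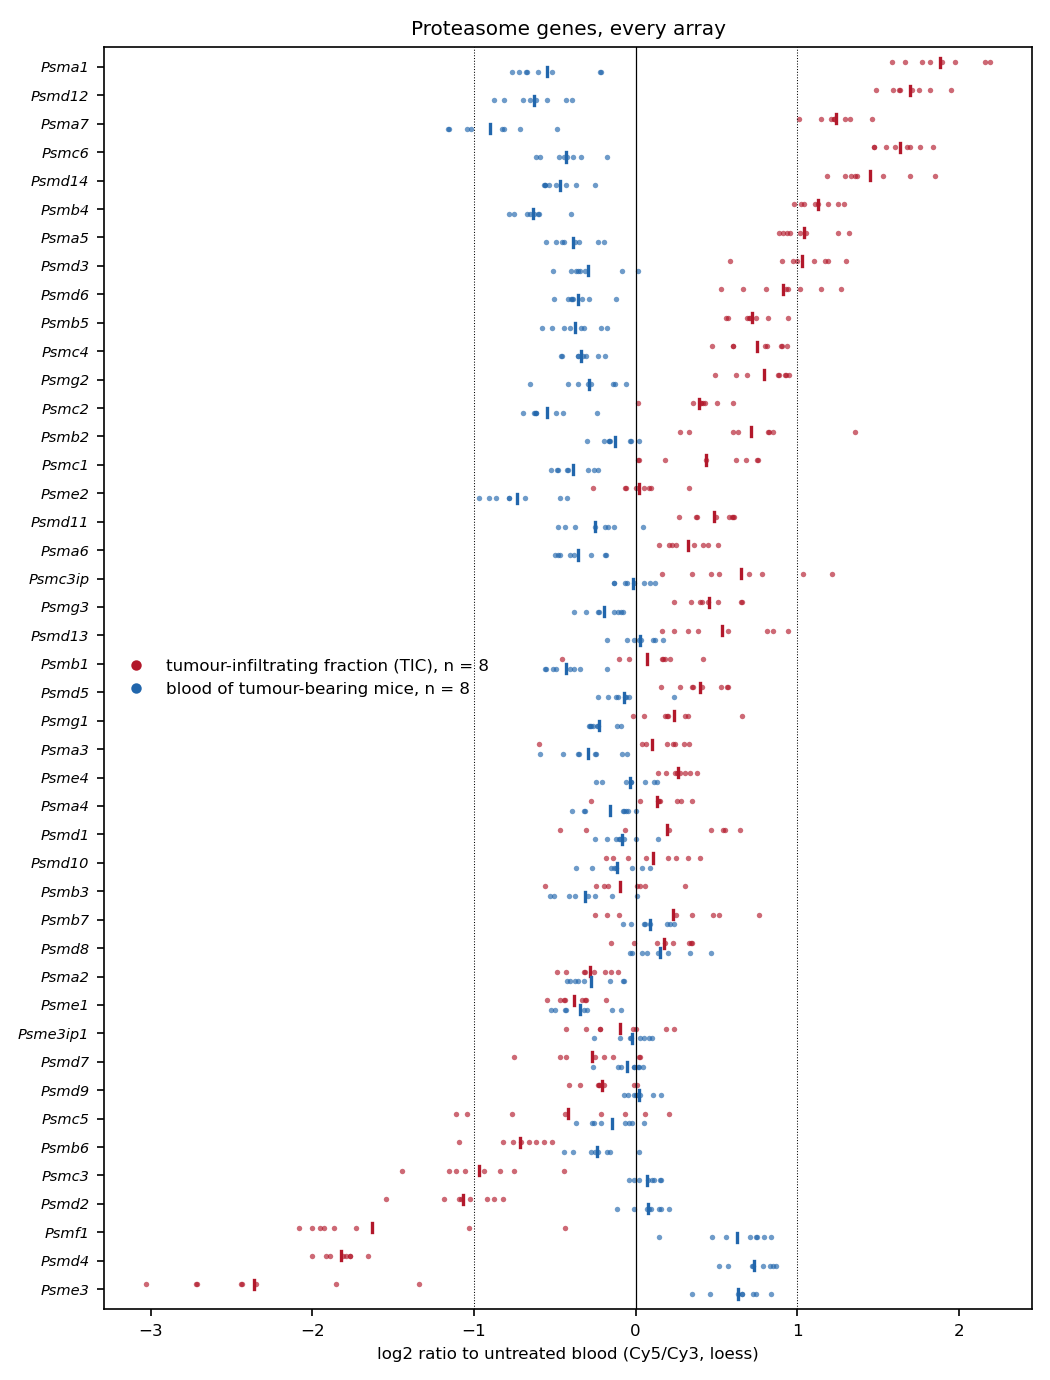
Log2 Cy5/Cy3 ratio to untreated blood of the 44 tested proteasome genes (loess). Each point is 1 array, TIC in red and blood of tumour-bearing mice in blue (n = 8 each), ticks are means, dotted lines mark 2-fold, and genes are ordered by the TIC minus blood difference. Psme3, Psmd4 and Psmf1 lay below 0 on all 8 TIC arrays and above 0 on all 8 blood arrays, and the genes at the top lay the other way round. With each array centred on its median, Psmd4 averaged 0.33 in TIC and Psme3 was not above 0 in blood.

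Among the alpha subunits of the core, Psma1 had the highest ratio of all members. Its log2 ratio was 1.59 to 2.19 (median 1.86) on TIC arrays and -0.76 to -0.21 (median -0.64) on blood arrays, and the groups did not overlap. The mean was 1.88 ± 0.22 in TIC (SD, n = 8, adjusted p = 1.3e-08, limma) and -0.55 ± 0.22 in blood (SD, n = 8, adjusted p = 4.2e-06), which is under 2-fold. Psma7, another ring subunit, averaged 1.24 ± 0.13 in TIC (adjusted p = 2.39e-08) and had the lowest mean of all members in blood, -0.90 ± 0.23 (SD, n = 8 each, adjusted p = 5.36e-08). Its values ran from 1.01 to 1.46 on TIC arrays and from -1.16 to -0.49 on blood arrays, again with no overlap. Psma5 averaged 1.04 ± 0.16 in TIC and -0.39 ± 0.12 in blood.
The other alpha subunits stayed within 2-fold of the reference. Psma6 averaged 0.32, Psma4 0.13, Psma3 0.10 and Psma2 -0.28 in TIC. In blood these 4 genes were at -0.36, -0.16, -0.30 and -0.27. Over the 7 alpha subunits the median was 0.32 in TIC, with 3 called higher, and -0.36 in blood, with all 7 below the reference at the adjusted p alone.

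Among the 7 tested beta subunits of the core only Psmb4, a structural subunit, was called. It averaged 1.13 ± 0.11 in TIC (adjusted p = 2.39e-08) and -0.64 ± 0.12 in blood (SD, n = 8 each, adjusted p = 3.43e-08), and its arrays ran from 0.98 to 1.29 in TIC and from -0.78 to -0.40 in blood. The proteolytic subunits differed from each other. Psmb5, which carries the chymotrypsin-like site, averaged 0.72 ± 0.12 in TIC and -0.37 ± 0.14 in blood, Psmb7, with the trypsin-like site, 0.23 ± 0.37 and 0.09 ± 0.12, and Psmb6, with the caspase-like site, -0.72 ± 0.18 and -0.24 ± 0.14 (SD, n = 8 each). Psmb6 lay below the reference on all 8 TIC arrays, but its reference signal was itself higher on TIC than on blood arrays (given with the reference channel further on). The remaining beta subunits were Psmb2 at 0.71, Psmb1 at 0.07 and Psmb3 at -0.10 in TIC, and their blood means were -0.13, -0.43 and -0.31. Psmb3 had a dimmer probe at 0.61 in TIC, so its probes disagreed in sign.
For comparison, the inducible counterparts of the proteolytic subunits, Psmb8, Psmb9 and Psmb10, were at -0.09, -0.94 and 0.09 in TIC and at -0.52, -0.21 and -0.88 in blood, and none was called.

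Of the 6 ATPases that form the ring of the base, Psmc6 was higher in TIC. Its log2 ratio was 1.47 to 1.84 (median 1.64) on TIC arrays and -0.62 to -0.18 (median -0.43) on blood arrays, with no overlap, and the means were 1.63 ± 0.13 in TIC (adjusted p = 3.15e-09, limma) and -0.43 ± 0.14 in blood (SD, n = 8 each). Psmc4 averaged 0.75, Psmc1 0.43 and Psmc2 0.39 in TIC, against -0.34, -0.39 and -0.55 in blood. Psmc3 lay on the other side, at -0.97 ± 0.30 in TIC (adjusted p = 1.37e-05) and 0.07 ± 0.07 in blood (SD, n = 8 each). Psmc5 was at -0.42 ± 0.50 in TIC, with its dimmer probe at 0.33. After loess the ring therefore spread over both sides of the reference in TIC, with a median of 0.41. The reference signal of Psmc3 and Psmc5, the 2 below 0, was higher on TIC than on blood arrays, by log2 differences of 1.20 and 0.96. By the Cy5 signal alone both were above 0 for TIC minus blood, at 0.15 and 0.72, where the median of all genes was 0.27.

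Of the 3 base subunits without ATPase activity, 2 were called lower in TIC and 1 was not called. Psmd4 (Rpn10), a ubiquitin receptor, had a log2 ratio of -1.999 to -1.66 (median -1.80) on TIC arrays and of 0.51 to 0.87 (median 0.76) on blood arrays. Every TIC array lay below and every blood array above the reference, and the spread within each group was small beside the gap. The means were -1.83 ± 0.11 in TIC (adjusted p = 6.99e-10, limma) and 0.73 ± 0.13 in blood (SD, n = 8 each, adjusted p = 1.47e-08), the highest blood mean of any member; with each array centred on its median the TIC mean was 0.33. Psmd2 (Rpn1), a scaffold that docks ubiquitin carriers, averaged -1.07 ± 0.23 in TIC (adjusted p = 1.18e-06) and 0.08 ± 0.10 in blood (SD, n = 8 each). Its dimmer probe was at -0.46 in TIC, and without TIC replicate 893 the mean was -0.999, just short of 2-fold. The reference signal of Psmd2 was higher on TIC than on blood arrays, by a log2 difference of 1.39. By the Cy5 signal alone Psmd2 was at 0.29 for TIC minus blood. Psmd1 (Rpn2), the other scaffold, was at 0.20 ± 0.43 in TIC and -0.08 ± 0.12 in blood.

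In the lid most members lay above the reference in TIC: 3 of 8 were called higher and none lower, the median was 0.72, and in blood the median was -0.27. Psmd12 had the second highest ratio of all members, with 1.49 to 1.95 (median 1.68) on TIC arrays and -0.88 to -0.39 (median -0.63) on blood arrays. Its mean was 1.70 ± 0.14 in TIC (adjusted p = 3.43e-09) and -0.63 ± 0.17 in blood (SD, n = 8 each, adjusted p = 2.36e-07), and its dimmer probes were at 0.93 and 0.99 in TIC. Psmd14 (Rpn11), the deubiquitinase of the lid, averaged 1.45 ± 0.22 in TIC (adjusted p = 1.03e-07) and -0.47 ± 0.11 in blood (SD, n = 8 each), with no array of one group within the range of the other. The dimmer probe of Psmd14 was at 0.91 in TIC, under 2-fold. Psmd3 averaged 1.03 ± 0.22 (0.99 without TIC replicate 896, under 2-fold) and Psmd6 0.91 ± 0.24 in TIC, against -0.29 and -0.36 in blood. Psmd13 was at 0.54, Psmd11 at 0.49, Psmd8 at 0.18 and Psmd7 at -0.27 in TIC. Psmd8 was also above the reference in blood, at 0.15. Psmd7 had a dimmer probe at 0.68 in TIC, opposite in sign to the brighter one.

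The activators went separate ways. Psme3 encodes PA28 gamma, the nuclear activator, and had the lowest ratio of all members in TIC. Its log2 ratio was -3.03 to -1.34 (median -2.44) on TIC arrays and 0.35 to 0.84 (median 0.66) on blood arrays, with no overlap. The mean was -2.36 ± 0.54 in TIC (adjusted p = 9.26e-07, limma) and 0.63 ± 0.16 in blood (SD, n = 8 each, adjusted p = 1.37e-07). Psme1 and Psme2, the PA28 alpha and beta subunits, averaged -0.38 ± 0.12 (adjusted p = 8.74e-05) and 0.02 ± 0.17 (adjusted p = 0.760) in TIC. In blood Psme1 averaged -0.34 ± 0.16 (adjusted p = 5.84e-05) and Psme2 -0.74 ± 0.20 (adjusted p = 1.26e-07), the second lowest of all members. Psme4, which encodes PA200, was at 0.27 ± 0.08 in TIC (adjusted p = 0.000319) and -0.03 ± 0.14 in blood (adjusted p = 0.627).
Psmf1 encodes PI31, first described as an inhibitor of the core. Its brightest probe had a log2 ratio of -2.08 to -0.44 (median -1.90) on TIC arrays and of 0.14 to 0.84 (median 0.72) on blood arrays. The means were -1.63 ± 0.58 in TIC (adjusted p = 2.63e-05) and 0.63 ± 0.23 in blood (SD, n = 8 each, adjusted p = 1.68e-06). The other probes of the same Psmf1 transcript gave 0.02 and 0.30 in TIC, so the low value rests on 1 of 3 probes.

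Assembly factors stayed within 2-fold of the reference. The chaperones of the core, Psmg1, Psmg2 and Psmg3, were at 0.24 ± 0.21 (adjusted p = 0.012), 0.80 ± 0.17 (adjusted p = 2.31e-06) and 0.46 ± 0.15 (adjusted p = 6e-05) in TIC and at -0.22, -0.29 and -0.19 in blood. All 3 passed the adjusted p in both groups and none reached 2-fold. The chaperones of the base, Psmd5, Psmd9 and Psmd10, were at 0.40, -0.21 and 0.11 in TIC and at -0.07, 0.02 and -0.12 in blood. On no blood array was Psmd9 well above background in Cy5. Its mean log2 Cy5 signal after normalisation was 7.35 in TIC and 7.12 in blood, and its ratio differed the other way, by -0.23 for TIC minus blood (adjusted p = 0.00467, limma), so no fold is given. Psmc3ip, which encodes a recombination factor, likewise had no blood array well above background, and its TIC signal was at least 2.41-fold higher than the blood signal, by its mean normalised Cy5 against the higher of its own blood signal and the dimmest probes above background. Psme3ip1, a partner of PA28 gamma, was at -0.10 in TIC and -0.02 in blood.

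**Figure D2:**
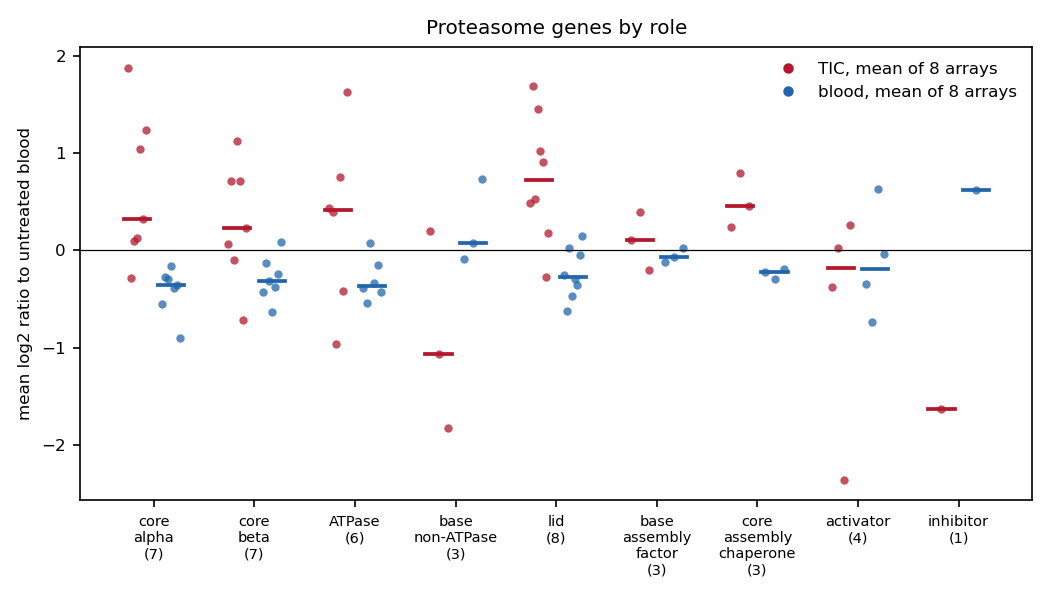
Mean log2 ratio to untreated blood of each tested proteasome gene, grouped by role, with the number of genes in brackets; TIC in red left of blood in blue, each point the mean of 8 arrays, bars the median of the group of genes. The lid median was 0.72 in TIC and -0.27 in blood. That of the 3 base subunits without ATPase activity was -1.07 in TIC and 0.08 in blood, which are the values of Psmd2. The reference signal of Psmd2 was higher on TIC than on blood arrays, by a log2 difference of 1.39. With arrays centred on their median the TIC medians of lid and base subunits were 2.79 and 1.07, both above 0.

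In blood of tumour-bearing mice against untreated blood no member was called in limma, against a background of 0.747% of genes (0.504% higher and 0.244% lower). At the adjusted p alone 28 members were lower and 4 higher, where the background was 29.0% lower and 20.8% higher (49.8% in all), and the median was -0.24 in blood against -0.02 for all tested genes. All 7 alpha subunits, 6 of 7 beta subunits and 5 of 6 ATPases were among the 28. The 4 higher genes were Psmd4, Psme3, Psmf1 and Psmd8, of which the first 3 were the lowest members in TIC. With arrays centred on their median Psmd8 and Psme3 were not above 0 in blood. The other named members at the lower end were Psmb4, Psmd12 and Psma1, given above, and the upper end was completed by Psmb7 at 0.09 ± 0.12 (adjusted p = 0.110).

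The core and the regulatory particle were then set against each other, as a description. In TIC the 14 tested core genes had a median of 0.27 and the 17 tested genes of the regulatory particle a median of 0.43. In blood the medians were -0.34 and -0.25. Within each array the core median minus the regulatory median ran from -0.23 to 0.13 in TIC, below 0 on 6 of 8 arrays, and from -0.25 to -0.00 in blood, below 0 on all 8. The differences between both particles were smaller than the range of genes within either of them, which reached from -0.72 to 1.88 for the core and from -1.83 to 1.70 for the regulatory particle in TIC.

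The difference between the groups, TIC minus blood, removes a dye bias that a probe shows on every array. By the same rule 12 members were higher and 5 lower in TIC than in blood and 27 were not called, against a background of 12.1% higher and 11.8% lower (23.8% in all). At the adjusted p alone 28 were higher and 7 lower, against a background of 42.3% higher and 32.5% lower (74.9% in all). The median difference was 0.48 for the members and 0.08 for all tested genes. The array values of TIC and blood did not overlap for 28 of 44 members, 22 with TIC higher and 6 with TIC lower, where the background was 24.8% and 17.4% (42.2% in all). The largest positive log2 differences were 2.43 ± 0.10 for Psma1 (adjusted p = 4.81e-13), 2.33 ± 0.08 for Psmd12 (adjusted p = 1.94e-14), 2.14 ± 0.09 for Psma7 (adjusted p = 5.59e-13), 2.07 ± 0.07 for Psmc6 (adjusted p = 2.11e-14) and 1.92 ± 0.09 for Psmd14 (adjusted p = 1.22e-12; SE, 8 arrays each, limma). The negative ones were -2.99 ± 0.18 for Psme3 (adjusted p = 6.26e-11), -2.56 ± 0.06 for Psmd4 (adjusted p = 2.68e-16), -2.26 ± 0.20 for Psmf1 (adjusted p = 1.63e-08), -1.15 ± 0.09 for Psmd2 (adjusted p = 1.89e-09) and -1.04 ± 0.10 for Psmc3 (adjusted p = 8.63e-08; SE, 8 arrays each). Psmd6, Psmb5, Psmc4 and Psmg2 passed 2-fold here and not against the reference, with 1.27, 1.09, 1.09 and 1.09. The dimmer probes of Psmc4 and Psmg2 gave 0.30 and 0.76, and with the mean of probes neither was called.

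The reference channel was looked at on its own after these values were seen. The labels give the same kind of reference RNA for every array, and its Cy3 signal differed for some genes between TIC arrays and blood arrays. With Cy3 quantile normalised between arrays, 5 members were higher on TIC arrays by the call rule and none lower, against a background of 5.36% higher and 1.32% lower (6.69% in all). They were Psmb6 with a log2 difference of 2.38, Psma2 with 1.43, Psmd2 with 1.39, Psmc3 with 1.20 and Psmd7 with 1.13. A higher reference lowers a ratio, and 2 of the 5 genes called lower in TIC than in blood are among them. By the Cy5 signal alone, quantile normalised between arrays, all 5 lay on the other side of 0 for TIC minus blood. Psmb6 stood at 2.07, Psma2 at 1.98 and Psmd7 at 1.02, all called higher, and Psmd2 at 0.29 and Psmc3 at 0.15, not called, where the median of all genes was 0.27. Psmd1, with a reference difference of 0.96, was at 1.43 by Cy5 alone. Psme3, Psmd4 and Psmf1 stayed lower by Cy5 alone, at -3.55, -2.23 and -2.35, and their reference differed by -0.87, 0.08 and -0.28. Psma1 and Psmd12 stayed higher, at 2.35 and 2.77, with reference differences of -0.56 and 0.07. The source of the difference in the reference was not tested.

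**Figure D3:**
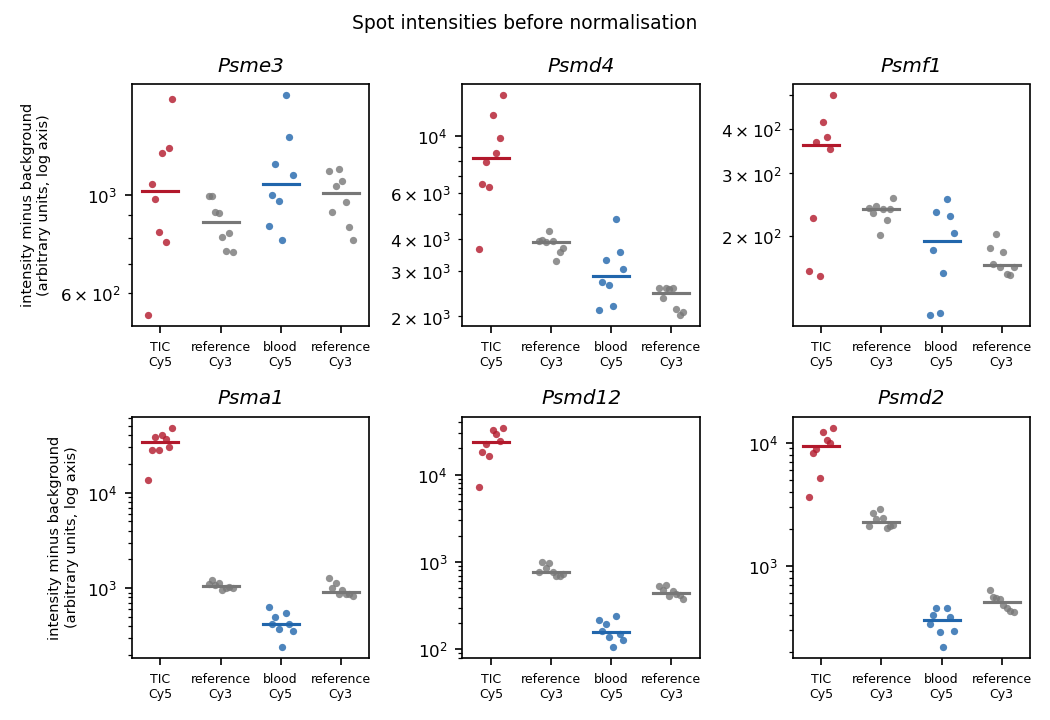
Spot intensity minus background, before normalisation, in arbitrary units on log axes, for 6 proteasome genes: TIC in Cy5 and the untreated-blood reference in Cy3 on the same arrays, then blood in Cy5 and its reference (8 arrays each, bars are medians). Psme3 had a like signal in all 4 columns, Psma1 and Psmd12 were far above the reference in TIC and below it in blood, and the reference of Psmd2 was 2285 on TIC arrays against 510 on blood arrays. Before normalisation the median Cy5 signal on TIC arrays was above the reference median for every tested member.

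The intensities before normalisation show what the ratios were made from. Psme3 had a median Cy5 signal of 1017 (536 to 1643) on TIC arrays and 1055 (789 to 1672) on blood arrays, and its reference had medians of 866 and 1007 in Cy3. Psma1 had 33698 (13680 to 47956) on TIC arrays and 419 (240 to 629) on blood arrays, with reference medians of 1049 and 908. On TIC arrays Psme3 thus stood near its reference before normalisation and Psma1 far above it, and on blood arrays Psme3 was again near its reference and Psma1 below it. The median Cy5 signal on TIC arrays was above the reference median for every tested member. Psmd8, at 0.18 in TIC and 0.15 in blood after loess, had 3318 on TIC arrays and 160.5 on blood arrays, with reference medians of 360.5 and 207. A gap in these intensities is therefore not by itself particular to a gene.
Psmd4 had a Cy5 median of 8224 (3631 to 14291) on TIC arrays and 2879 (2115 to 4775) on blood arrays, with reference medians of 3896 and 2462. Psmf1 had 360 on TIC arrays and 193 on blood arrays, with 238 and 165 in the reference. Psmd12 had 23285 on TIC arrays and 157 on blood arrays, with 765 and 443 in the reference.

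The zero point depended on the normalisation, while the ends of the order by the brightest probe held. The median log2 ratio of all tested genes in TIC was 0.04 after loess, 0.17 in the deposited ratios, 0.56 with arrays centred on their spike-in spots and 1.20 with arrays centred on their median ratio; in blood it was -0.02, -0.11, -0.14 and -0.16. With median centring 41 of 44 members were called higher in TIC and none lower, where 6852 of all 12311 tested genes were higher and 407 lower. With the spike-in spots 37 members were higher and 1 lower, where 4626 of all tested genes were higher and 1129 lower. Under all of these settings, and without background correction, Psma1, Psmd12 and Psmc6 were the 3 highest and Psme3, Psmd4 and Psmf1 the 3 lowest of the 44 members in TIC. Median and spike-in centring each subtract 1 value per array from the same ratios, so their order of members is the same by construction. With median centring Psme3 stood at -0.46, Psmf1 at -0.29 and Psmd4 at 0.33, which is -1.67, -1.49 and -0.87 relative to the median of all genes. Other probes did not keep this order. After loess the dimmer probes of Psmf1 were at 0.02 and 0.30 in TIC and those of Psmd12 at 0.93 and 0.99. By those probes neither gene would stand at its end of the order.
Loess depends on brightness, so pairs of members of like mean brightness over all arrays are given. Within a group the members of a pair were not of like brightness. On TIC arrays the median Cy5 signal was 23285 for Psmd12 and 1017 for Psme3, and on blood arrays it was 157 and 1055. The pairs therefore do not remove an effect of brightness on loess. They were taken from opposite ends of the order after the values were seen, so their direction is a description. Psma5 minus Psmd4 was 2.68 to 3.32 on TIC arrays (mean 2.87 ± 0.21) and -1.34 to -0.86 on blood arrays (mean -1.12 ± 0.15; SD, n = 8 each). Psmd12 minus Psme3 was 3.09 to 4.98 on TIC arrays (mean 4.06 ± 0.60) and -1.65 to -0.74 on blood arrays (mean -1.26 ± 0.30; SD, n = 8 each).

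**Figure D4:**
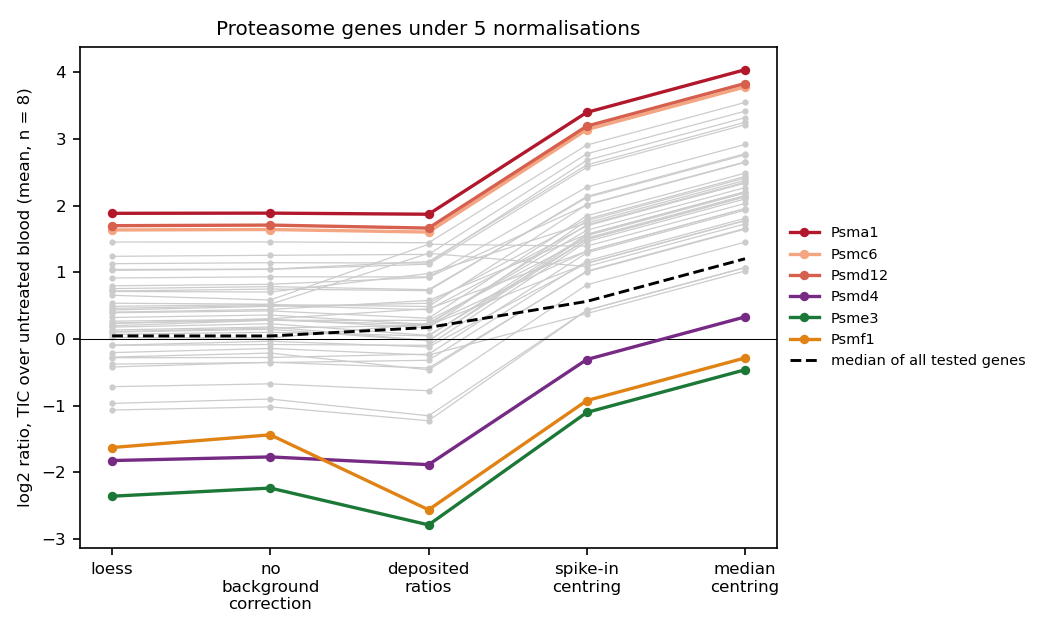
Mean log2 ratio of TIC to untreated blood (n = 8 arrays) for the 44 tested proteasome genes under 5 normalisations, 1 line per gene, with the median of all tested genes dashed. Psma1, Psmd12 and Psmc6 stay the 3 highest and Psme3, Psmd4 and Psmf1 the 3 lowest throughout, while the whole set moves up by over 1 log2 unit with median centring, where Psmd4 crosses 0. Each gene is its brightest probe, and median and spike-in centring give the same order of genes by construction.

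Other genes of the ubiquitin-proteasome system were taken from a list of 30, of which 29 had a named probe and 28 were tested. In TIC 11 were higher, 3 lower and 14 not called (median 0.57), in blood none was called (median -0.13), and for TIC minus blood 12 were higher, 3 lower and 13 not called (median 0.75). Over all tested genes 9.30% were higher and 10.1% lower in TIC, and 0.747% were called in blood. For TIC minus blood the background was 12.1% higher and 11.8% lower. The lower genes of the list in TIC were the polyubiquitin gene Ubb at -2.76 ± 0.10 (SE, n = 8), Fbxo7, an F-box protein that binds PI31, at -2.38 ± 0.13, and Vcp, the segregase that extracts ubiquitinated proteins, at -1.43 ± 0.05. In blood these 3 genes were at 0.27, 0.51 and 0.31. With arrays centred on their median, 25 of the 28 genes were higher in TIC and none lower, where 6852 of all 12311 tested genes were higher and 407 lower. Ubb was then at -0.44, Fbxo7 at -0.49 and Vcp at 0.73, and in blood only Ubb of the 3 was above 0. The largest positive values in TIC were those of Txnl1, a thioredoxin-like protein of the regulatory particle, at 2.11 ± 0.06, Rad23b at 2.01 ± 0.07, the deubiquitinase Uchl5 at 1.63 ± 0.07, Zfand5 at 1.53 ± 0.08 and Sem1, the small lid subunit, at 1.37 ± 0.09.
The ubiquitin genes thus stood apart, with the ubiquitin fusion gene Rps27a at 1.09 in TIC where Ubb was at -2.76. Pomp, the maturation factor of the core, was at 1.27 in TIC and -0.51 in blood. The transcription factor genes Nfe2l1, which drives proteasome genes when the proteasome is inhibited, and Nfe2l2 were at 1.03 and 1.25 in TIC and at -0.20 and -0.12 in blood.
Psme3, Psmd4, Psmf1, Psmd2, Psmc3 and Psmd9, with Fbxo7, Ubb and Vcp, had means below the reference in TIC and above it in blood after loess. So did the medians of the erythroid markers (-4.57 in TIC and 0.31 in blood), the neutrophil markers (-1.96 and 1.1001) and the endothelial markers (-0.51 and 0.12). The part of RNA from these cells in the values was not tested. In blood Psmd2, Psmc3 and Psmd9 were only just above 0, at 0.08, 0.07 and 0.02, and did not pass the adjusted p (0.150, 0.155 and 0.709, limma). The dimmer probe of Psmd9 had the opposite signs, 0.18 in TIC and -0.02 in blood. Ratios of TIC and blood arrays correlated negatively over all tested probes (r of -0.31 to -0.08), and the share of all genes with these signs was not counted.

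**Figure D5:**
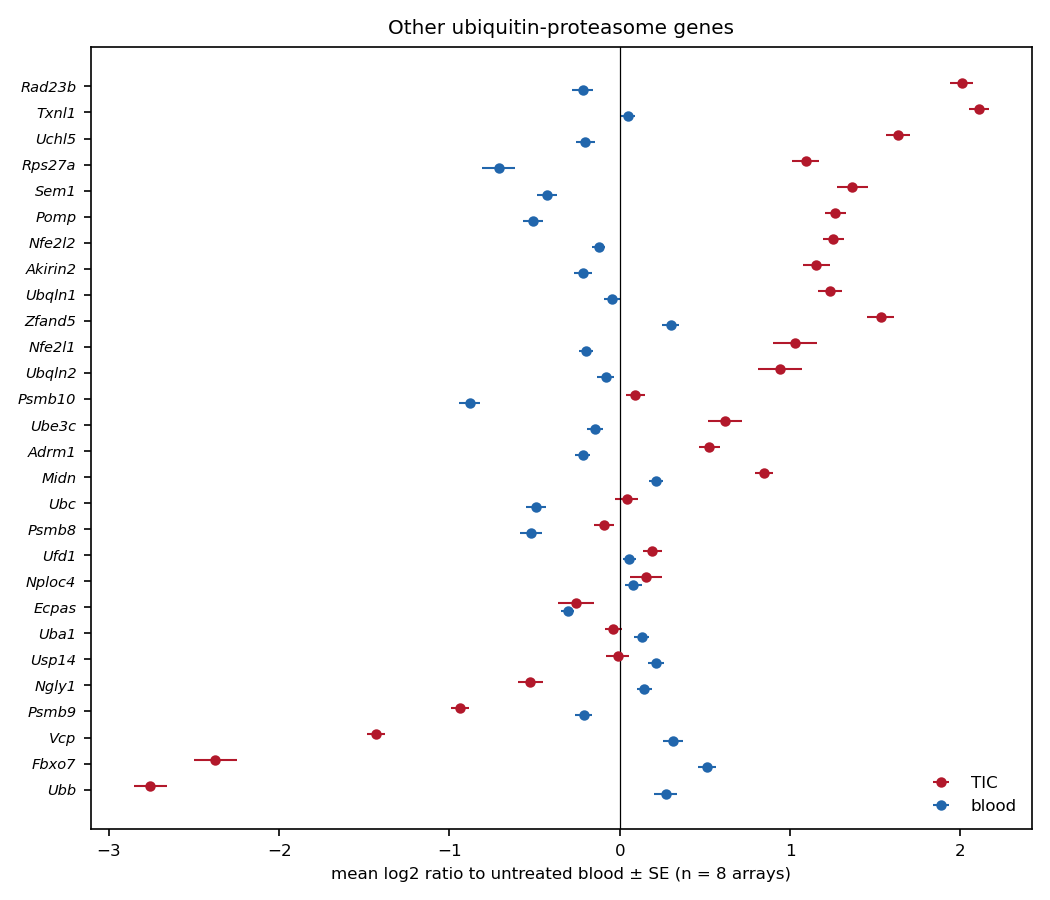
Mean log2 ratio to untreated blood (± SE, n = 8 arrays) of the 28 tested genes of the ubiquitin-proteasome system outside the set, TIC in red and blood of tumour-bearing mice in blue, ordered by the TIC minus blood difference. After loess Ubb and Fbxo7 were low in TIC and above 0 in blood, and Rad23b and Txnl1 were the highest in TIC; with median centring Fbxo7 was below 0 in blood.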

How the data were processed

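Each of the 16 arrays was a 2-colour Agilent whole mouse genome array read by Feature Extraction (version 10.5.1.1 per the file headers, 9.1.3.1 per the submitters' processing notes). The deposited files give the median intensity of each spot and of its background in both dyes, before normalisation, and the authors' log10 ratios of Cy5 over Cy3, which were identical to the deposited value table (maximum difference 0; median 0 in every column). From the intensities, limma 3.58.1 (R 4.3.3) corrected the background (normexp, offset 50) and normalised within arrays (loess, control spots at weight 0); flagged spots (87 to 153 per array) were left out and no spot was saturated. Probes of 1 sequence were averaged. A probe was tested if well above background in Cy5 on at least 4 arrays of a group or in Cy3 on at least 8 arrays (26509 of 41174 probes; 23374 had 1 symbol, 17800 none). The fit (lmFit, eBayes) took ratios against 0 within a group, or the group difference, with Benjamini-Hochberg adjustment over all tested probes; in simulated data it was tested first. Names and promoters came from RefSeq (GRCm38.p6), the design build per the file headers being mm8. Replicate numbers were not taken as pairs. Members and lists were chosen with earlier results of these data known. Every tested member could be named; full statistics went to the 5 highest and 5 lowest of each comparison and to activators, inhibitor and assembly factors, and other genes of the system were named up to 5 per direction; some genes of that list are not reported here. Alternatives were other centrings, background correction, filters, probe averaging, call rule, slides, channel and leaving out each array.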

Additional observations from a re-analysis of the deposited data

Results flagged for a closer look

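In 88 sets of 8 arrays (each tested member in each group), 3 had a single array far from the others by Dixon's criterion, where chance gives about 1 in 20 sets. Psma3 was at -0.60 on the array of TIC replicate 893, against 0.04 to 0.33 on the other TIC arrays. Psmc2 was at 0.017 on the same TIC array, against 0.36 to 0.60 on the others. Psmd5 was at 0.24 on the array of blood replicate 898, against -0.23 to -0.04 on the other blood arrays.

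The 17 members whose ratio to untreated blood differed between TIC and blood, by the limma test of the difference itself at an adjusted p below 0.05 and at least 2-fold, were the following, as log2 differences TIC minus blood over 8 arrays each. Core subunits with a higher ratio in TIC were Psma1 (2.43), Psma7 (2.14), Psmb4 (1.76), Psma5 (1.43) and Psmb5 (1.09). Subunits of the regulatory particle with a higher ratio were Psmd12 (2.33), Psmc6 (2.07), Psmd14 (1.92), Psmd3 (1.32), Psmd6 (1.27) and Psmc4 (1.09), and the core chaperone Psmg2 had 1.09. Lower in TIC than in blood were Psme3 (-2.99), Psmd4 (-2.56), Psmf1 (-2.26), Psmd2 (-1.15) and Psmc3 (-1.04).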

How the results depend on the processing

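Counts moved mainly with centring and with the call rule. In TIC, 12 of 44 members and 2390 genes were called after loess; the deposited ratios called 5764 genes (blood 956, TIC minus blood 7011). With median centring, 41 members (41 higher, 0 lower) and 7259 genes were called in TIC, 11 members (11 lower) and 894 genes in blood, and 41 members (41 higher, 0 lower) and 7711 genes for TIC minus blood; 11 members changed sign in TIC and 10 for TIC minus blood, of which 10 and 9 were called; among them, the members given with full statistics and called after loess or with this centring were in TIC Psmd4 (0.33), Psmd2 (1.07), Psmc3 (1.07), Psmd9 (1.02), Psme1 (1.81) and Psme3ip1 (1.78), and for TIC minus blood Psmd4 (0.16), Psmd2 (1.66), Psmc3 (1.605), Psmd9 (1.05), Psme1 (2.77) and Psme3ip1 (2.29). With spike-in centring, 38 members (37 higher, 1 lower) and 5755 genes were called in TIC, 9 members (9 lower) and 811 genes in blood, and 39 members (38 higher, 1 lower) and 6768 genes for TIC minus blood; 10 members changed sign in TIC and 9 for TIC minus blood, of which 6 were called in each; by the same choice these were Psmd2 (0.43), Psme1 (1.17) and Psme3ip1 (1.14) in TIC and Psmd2 (0.9998), Psmc3 (0.94), Psme1 (2.11) and Psme3ip1 (1.63) for TIC minus blood. Of genes called in TIC, 47.9% were higher after loess, 55.0% in the deposited ratios, 80.4% with spike-in and 94.4% with median centring; in blood the shares were 67.4, 34.1, 1.48 and 1.12%, and for TIC minus blood 50.6, 60.4, 82.6 and 95.7%. By the adjusted p alone, 35 members (24 higher, 11 lower) and 9404 genes were called in TIC, 32 (4 higher, 28 lower) and 6129 genes in blood, and 35 (28 higher) and 9217 genes for TIC minus blood. By the Cy5 signal alone, 30 members (27 higher, 3 lower) and 4545 genes were called for TIC minus blood, and 10 members changed sign: Psmb6 (2.07), Psma2 (1.98), Psmd7 (1.02) and Psme1 (1.02), which were called, and Psmd2 (0.29), Psmc3 (0.15), Psmc5, Psmd8, Psmd9 and Psme3ip1, which were not. With the mean of all probes of a gene, 2 members were lower in TIC, and 10 were higher and 3 lower for TIC minus blood, since Psmf1 (-0.43 in TIC, -0.65 for TIC minus blood) and Psmd2 (-0.76 in TIC, -0.90 for TIC minus blood), with Psmc4 and Psmg2 (0.92) for TIC minus blood, were no longer called. Blood genes called were 53 without background correction, 61 on the first slide, and 152 on the second, with 1 member called, which was lower. Leaving out each array in turn gave 11 to 13 members (7 to 8 higher, 3 to 5 lower) and 2312 to 2625 genes in TIC, 0 members and 75 to 106 genes in blood, and 16 to 17 members (12 higher, 4 to 5 lower) and 2847 to 3193 genes for TIC minus blood; without TIC replicate 893 Psmd2 (-0.999 in TIC) and Psmc3 (-0.97 for TIC minus blood) lost their calls, without TIC replicate 896 Psmd3 (0.99 in TIC) lost its call, and without TIC replicate 897 Psmc3 was called in TIC. The core minus the regulatory particle stayed within 1 SD of its mean (-0.07 in TIC, -0.13 in blood) under every setting run on it, and was 0.01 in TIC with the mean of probes. Slide as a random block and both filters on dim probes left the counts of members called as they were. The labels do not say whether same-numbered TIC and blood samples came from 1 mouse. Deviations of same-numbered arrays correlated with r of -0.17 to 0.20, and 2 of 8 TIC arrays matched their own number best. This cannot decide the question, since TIC and blood of 1 mouse need not deviate alike. The fit with the sample number as a replicate block gave 12 members higher and 5 lower and 2935 genes for TIC minus blood, as without it. The cause of each of these changes was not tested. Of the members, Psmd9 and Psmc3ip were limited by a blood signal not well above background.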
